A study of Mus musculus with 4 samples.

Results

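The axon guidance genes measured here are the 60 genes, among 27933 in the files, whose symbols name a semaphorin, plexin, neuropilin, Eph receptor, ephrin, Robo receptor or Slit ligand. They were taken by symbol alone: 20 semaphorins (Sema3 to Sema7), 9 plexins, 2 neuropilins, 14 Eph receptors, 8 ephrins, 4 Robo receptors and 3 Slits. RNA was sequenced from melanocyte stem cells, which renew the pigment cells of hair and were purified from mouse skin by fluorescence-activated cell sorting. The control mice were injected with saline (2 libraries) and the stressed mice with RTX, an agent the labels name by this abbreviation only (2 libraries). Per the labels, cells were harvested 12 h after injection. Strain, genotype, age and sex, the markers used for sorting, and whether libraries came from separate animals are not given in the sources used here, so p-values reflect only how far these libraries differ, and that spread may be technical. The title of the series concerns loss of these cells under strong sympathetic nerve activity, and the design allows 1 comparison, that of the stressed with the control libraries.

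Guidance molecules tell moving cells and growing axons where to go. Semaphorins bind plexins, with neuropilins as co-receptors for most secreted class 3 members; ephrins are membrane-bound and bind Eph receptor tyrosine kinases on the touching cell, so that signals can run in both directions; Slits are secreted and bind Robo receptors. Melanocytes descend from the neural crest, whose cells are steered by these families on their way to the skin, and in adult skin the same families are expressed in the epidermis and hair follicle.

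Each library held 9273652 to 11854280 counts, of which 0.2295% to 0.2836% fell on guidance genes. Levels are given as CPM, counts scaled to a common library total by TMM, a method that balances libraries on their shared genes. Where levels of different genes are compared, RPKM is used, which is CPM per kilobase of exon. A count of 0 allows up to 3 counts, or 0.2542 to 0.3214 CPM in a library, for counting error only. The libraries of each group differed by more than counting noise, since chi-square over its degrees of freedom was 57.07 for the controls and 18.58 for the stressed libraries. Of 10 melanocyte markers 10 were detected, at 22861 and 23591 CPM summed in the controls and 38521 and 41017 CPM in the stressed libraries. Markers of keratinocytes, the main cells of the epidermis, were also present. Their 12 genes summed to 27491 and 17120 CPM in control replicates 1 and 2 and to 10824 and 9740 CPM in stressed replicates 1 and 2. This was above the melanocyte sum in control replicate 1 and below it in the other libraries, so detection of melanocyte markers alone does not show purity. All 12 lay lower in stressed cells by the fitted value, 10 of them in both stressed libraries against both controls. Blood vessel, immune and fibroblast markers each summed to at most 41 CPM, and the defining endothelial gene Cdh5 and the fibroblast gene Lum had no count. Pericyte and smooth muscle markers summed to at most 30.9 CPM and neuron markers to at most 19.1 CPM. Schwann cell markers summed to 119 and 143 CPM in the controls and to 160 and 106 CPM in the stressed libraries. Most of that came from Cdh19, whose groups overlapped, and from Mbp, which lay lower in both stressed libraries.

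Of the 60 genes, 58 had at least 1 count and 46 had a count in every library. Robo4, a receptor of blood vessel cells, and Epha8 had none in any library. Another 12 had 1 to 26 counts over all 4 libraries and were too low to test: Sema3g, Sema4f, Sema5b, Sema6b, Sema7a, Plxnb3, Efnb3, Epha5, Epha6, Epha10, Robo3 and Slit1. Among these, Epha10 had 13 and 1 counts in the controls and none in the stressed libraries, and Slit1 had 21 of its 22 counts in stressed replicate 1. In all, 46 genes were tested, 37 of them with a mean of at least 10 CPM and 7 with at least 100 CPM.

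By level per length, the leading guidance gene was Ephb6, with a mean of 62.8 RPKM, followed by Efna1 at 48.5, Plxnc1 at 47.9, Plxnb2 at 33.2, Efnb1 at 30.2 and Epha1 at 20.9 RPKM. Ephb6 encodes an Eph receptor without kinase activity, Efna1 a ligand of EphA receptors, Plxnc1 the receptor of Sema7a, and Plxnb2 a receptor of class 4 semaphorins. The order is loose, because the range of each of the 11 leading genes over the 4 libraries overlapped that of the next. Sema3c led the semaphorins at 17.2 RPKM, Nrp1 the neuropilins at 8.43 RPKM, Robo1 the Robo receptors at 2.71 RPKM and Slit3 the Slits at 2.53 RPKM. Sema7a had 19 counts in all, 13 of them in stressed replicate 1, although Plxnc1 was the most abundant plexin.

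**Figure D1:**
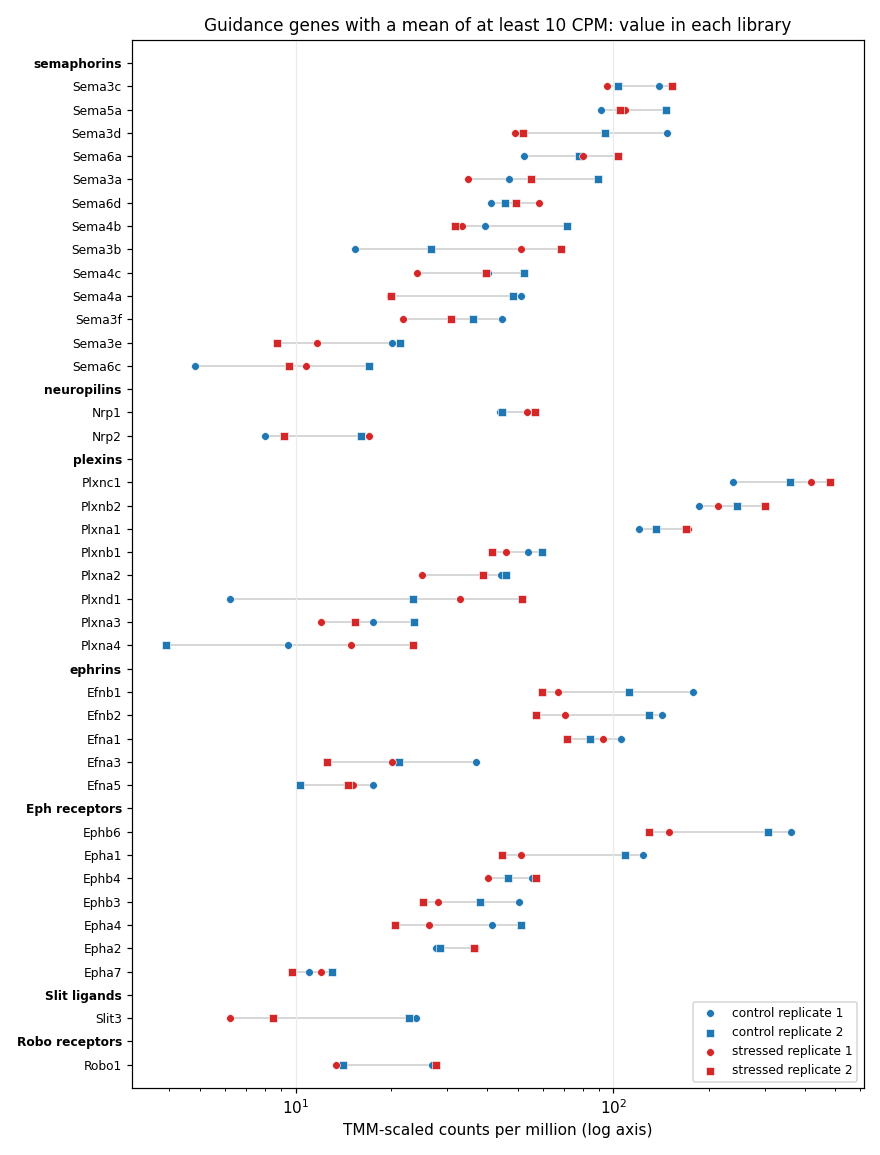
Level of each guidance gene with a mean of at least 10 CPM, as TMM-scaled CPM on a log axis, in control (blue) and stressed (red) libraries; circles are replicate 1, squares replicate 2, and grey lines span the 4 values. Both red points lie left of both blue points in many genes, among them Ephb6, Epha1, Efnb1, Efnb2, Sema3d, Sema4a and Slit3. They lie to the right in others, among them Sema3b and Plxnc1. Of the tested guidance genes 45.7% lay below and 21.7% above in this way, against 22.9% and 21.8% of all tested genes.

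In stressed cells, Efnb1 and Efnb2, several Eph receptors, class 4 semaphorins and Slit3 lay lower, while Sema3b, Plxnc1 and Plxna1 lay higher. Of the 46 tested genes 29 were lower and 17 higher, and their median log2 fold change was -0.35, against -0.0091 over all 13348 genes tested. DESeq2 called 8 guidance genes lower and 1 higher at an adjusted p below 0.05, against 2.67% and 1.73% of all tested genes. Those that fell were Ephb6, Epha1, Epha4, Efnb1, Efnb2, Sema3d, Sema4a and Slit3, and the 1 that rose was Sema3b. The edgeR quasi-likelihood test, the main test, called none of the 46, as it called 0% of all genes, and the smallest adjusted p of a guidance gene was 0.1214. At an unadjusted edgeR p below 0.05 there were 12 lower and 3 higher guidance genes, against 7.6% and 5.17% of all tested genes. Both stressed libraries lay below both controls for 21 guidance genes (45.7%) and above both for 10 (21.7%), against 22.9% and 21.8% of all tested genes. The calls depended on single libraries. DESeq2 called 6 guidance genes without control replicate 1, 4 of them among the 9, and 9 without control replicate 2, 7 of them among the 9, where it called 3.43% and 5.78% of all genes. It called 1, Ephb6, without stressed replicate 1 and 0 without stressed replicate 2, where 8 had an unadjusted p below 0.05. Over all genes its calls fell to 1.02% and 0.316% in those fits. By edgeR 12 guidance genes were called without control replicate 1, 10 without control replicate 2 and 11 with no low-count filter, against 4.52%, 5.34% and 4.02% of all genes tested in those fits. Without either stressed library edgeR called 0 guidance genes and 0% of all genes.

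**Figure D2:**
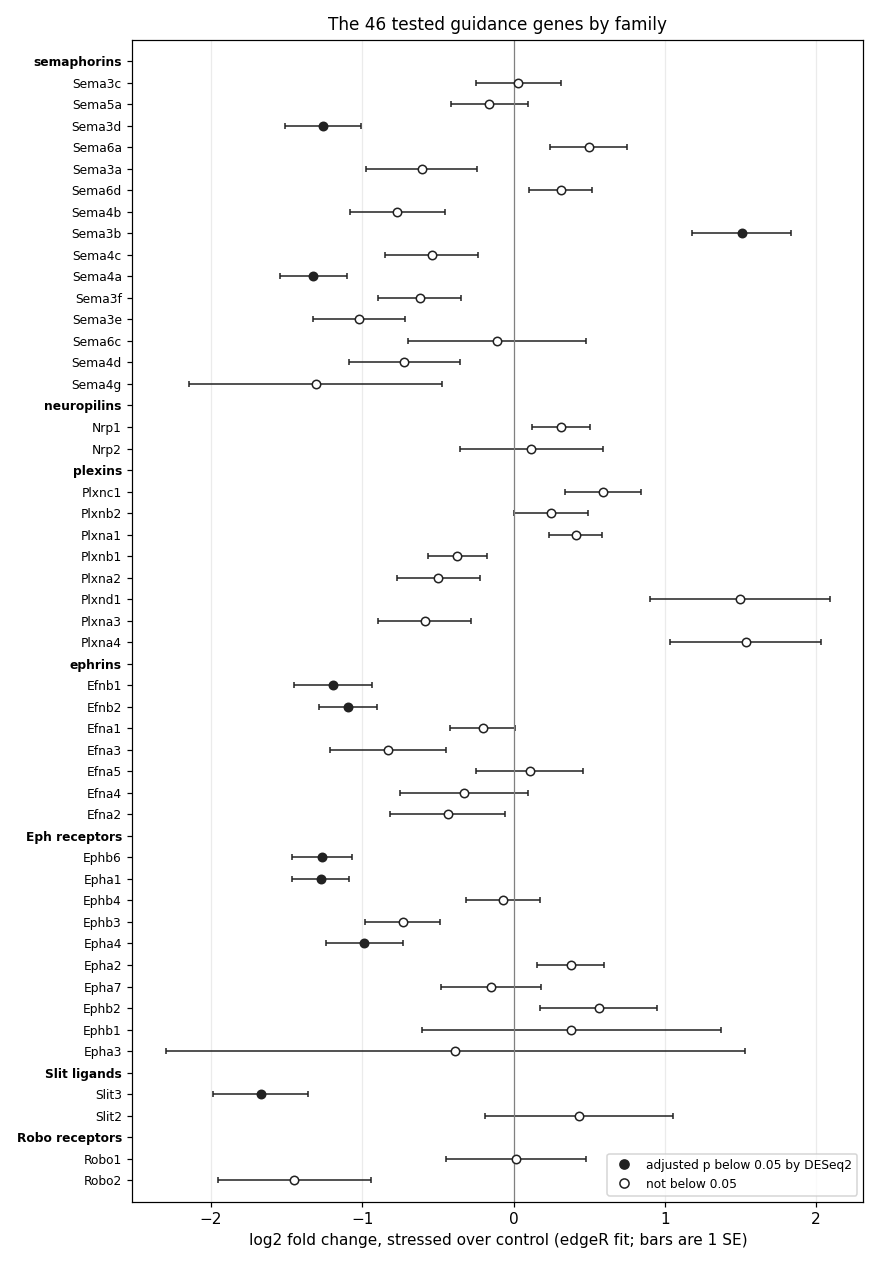
Fitted log2 fold change (stressed over control, bars are 1 SE) of the 46 tested guidance genes by family, from the highest to the lowest mean CPM in each family. Filled points are the 9 genes with a DESeq2 adjusted p below 0.05; 8 lie left of 0 and Sema3b lies right of it.

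Among the ephrins, the ligands of Eph receptors, the 2 tested B-class genes lay lower and were called by DESeq2 but not by edgeR. Of the 5 A-class genes 4 lay lower by the fitted value and 1 higher. Ephrin-Bs cross the membrane and signal into their own cell, whereas ephrin-As are held by a lipid anchor. Efnb2 (chromosome 8, 8617434-8661242, mm10, minus strand) stood at 142 and 130 CPM in the controls, against 70.5 and 56.9 CPM after RTX (here and below, replicate 1 first). It fell by DESeq2 (adjusted p = 0.0006809), with a log2 fold change of -1.09 (SE 0.19) and an edgeR adjusted p of 0.1285. Efnb1 (chromosome X, 99136130-99148991, plus strand) stood at 178 and 112 CPM in the controls, against 67.0 and 59.8 CPM after RTX. DESeq2 called it lower (adjusted p = 0.003172), at a log2 value of -1.19 (SE 0.26), or -0.81 without control replicate 1 and -1.48 without control replicate 2. Neither gene's groups overlapped, and Efnb3 had 18 counts in all. Summed CPM of the B class was 320 and 243 in the controls, against 138 and 117 after RTX.

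The A-class ephrins did not pass either test. Efna1, the most abundant, was at 106 and 84.5 CPM in the controls, against 93.1 and 71.7 CPM after RTX, a log2 difference of -0.20 that was smaller than its SE of 0.22. Efna3 was at 36.9 and 21.2 CPM in the controls, against 20.1 and 12.5 CPM after RTX, with no overlap but a large spread between controls. Efna5 was at 17.5 and 10.3 CPM in the controls, against 15.2 and 14.6 CPM after RTX, inside the control range. Efna2 and Efna4, under 10 CPM on average, had log2 differences of -0.44 and -0.33, each within about 1 SE. Exons of Efna3 and Efna4 share 14.13% and 10.51% of their length with genes on the opposite strand, and counting took no account of strand.

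The Eph receptors held the guidance genes with the smallest p-values. Ephb6 (chromosome 6, 41605482-41620509, plus strand), the receptor without kinase activity, stood at 362 and 307 CPM in the controls, against 149.5 and 129 CPM after RTX. Its groups were far apart, and it fell by DESeq2 (adjusted p = 3.226e-06) with a log2 fold change of -1.26 (SE 0.20) and an edgeR adjusted p of 0.1214. Epha1 (chromosome 6, 42358487-42373268, minus strand), the founding member of the family, stood at 124 and 109 CPM in the controls, against 51.3 and 44.7 CPM after RTX. It fell by DESeq2 (adjusted p = 3.461e-05), with a log2 fold change of -1.28 (SE 0.19). The 2 genes lie 738.0 kb apart and point in opposite directions. Epha1 shares 6.01% of its exon length with Zyx on the other strand.

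Epha4 (chromosome 1, 77367185-77515088, minus strand), which binds ephrins of both classes, stood at 41.6 and 51.3 CPM in the controls, against 26.3 and 20.6 CPM after RTX. It fell by DESeq2 with an adjusted p of 0.04762, close to the threshold (log2 fold change -0.99, SE 0.25). Ephb3, an ephrin-B receptor, was at 50.5 and 38.04 CPM in the controls, against 28.0 and 25.2 CPM after RTX, without overlap; its unadjusted edgeR p of 0.02385 became 0.3049 after adjustment. Of the 10 Eph receptors tested 7 were lower and 3 higher by the fitted value, and those other than Ephb6, Epha1, Epha4 and Ephb3 differed less clearly. Epha2, an ephrin-A receptor of epithelia, was at 27.7 and 28.5 CPM in the controls, against 36.6 and 36.5 CPM after RTX, a log2 difference of 0.38 (SE 0.22) that passed neither test. Ephb4, the main receptor of ephrin-B2, was at 55.4 and 46.7 CPM in the controls, against 40.3 and 56.9 CPM after RTX, so its groups overlapped, and its sign turned when either replicate 1 was left out. Epha7 was at 11.03 and 13.05 CPM and at 12.0 and 9.73 CPM, also overlapping. Ephb2, under 10 CPM on average, had a log2 difference of 0.56 (SE 0.39), and Ephb1 and Epha3 had under 60 counts each in all. The median log2 fold change of the 10 tested Eph receptors was -0.27, moving to -0.61 with control replicate 2 left out and to -0.16 with stressed replicate 2 left out.

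The 220 bases that end 31 bases before the RefSeq start of the main fallen receptor and ligand genes are shown because these 4 genes moved together, 5′ to 3′ on the strand of the gene (GRCm38.p6, the build of mm10). Capitals mark GC-boxes, GGGCGG on either strand, the element bound by the SP and KLF zinc finger factors.
Ephb6 (chr6:41605261-41605480, plus strand): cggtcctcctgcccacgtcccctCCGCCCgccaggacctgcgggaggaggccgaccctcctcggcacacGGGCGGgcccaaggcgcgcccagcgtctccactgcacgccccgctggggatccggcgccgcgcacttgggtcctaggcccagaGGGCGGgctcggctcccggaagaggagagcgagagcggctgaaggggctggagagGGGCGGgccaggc
Epha1 (chr6:42373299-42373518, minus strand): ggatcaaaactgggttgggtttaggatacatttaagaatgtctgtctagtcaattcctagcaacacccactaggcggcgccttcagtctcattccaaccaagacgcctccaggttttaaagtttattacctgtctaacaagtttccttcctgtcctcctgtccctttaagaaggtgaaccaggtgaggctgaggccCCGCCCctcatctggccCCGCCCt
Efnb1 (chrX:99135811-99136030, plus strand): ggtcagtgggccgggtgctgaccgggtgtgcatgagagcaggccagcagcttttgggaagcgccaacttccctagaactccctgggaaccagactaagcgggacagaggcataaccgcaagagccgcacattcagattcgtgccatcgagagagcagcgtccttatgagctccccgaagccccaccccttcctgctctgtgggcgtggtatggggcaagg
Efnb2 (chr8:8661273-8661492, minus strand): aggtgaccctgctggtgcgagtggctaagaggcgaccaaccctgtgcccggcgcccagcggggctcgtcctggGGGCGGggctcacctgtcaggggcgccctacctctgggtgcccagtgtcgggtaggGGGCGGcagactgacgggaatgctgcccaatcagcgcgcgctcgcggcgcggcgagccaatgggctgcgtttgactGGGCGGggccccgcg
RefSeq windows were found for 53 of the 60 guidance genes. GC-boxes numbered 4 in Ephb6, 2 in Epha1, 3 in Efnb2 and 0 in Efnb1. Of all 32851 such windows 28.498% held at least 1 GC-box, and a gene can have more than 1 window. Counted by gene, 31.156% of all 27025 genes and 37 of the 53 guidance genes had a window with one. These shares take no account of base composition, though the motif holds only G and C. The median window over all genes was 51.82% G and C, against 76.82% in Ephb6, 50.45% in Epha1, 61.36% in Efnb1 and 73.18% in Efnb2. Searched in the same way on both strands were the E-box CACGTG (5.007% of all windows), the melanocyte E-box core CATGTG (11.114%), the AP-1 site TGANTCA (6.115%), the cAMP response element TGACGTCA (1.138%), the SOX core ACAAAG (14.831%) and TATAAA (9.954%). None of these was found in the 4 windows shown. A match describes letters only, and a missing match says nothing about a factor.

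Most semaphorins lay lower by the fitted value, but DESeq2 called 2 lower and 1 higher. Of 15 tested 11 were lower, at a median log2 fold change of -0.61, moving to -0.16 with control replicate 2 left out and to -0.27 with stressed replicate 1 left out. With no low-count filter it was -0.13 over all 20, 8 of them higher. The secreted class 3 members went both ways. Sema3d (chromosome 5, 12383385-12588948, plus strand) stood at 148 and 94.5 CPM in the controls, against 49.2 and 52.1 CPM after RTX. The fall was called by DESeq2 (adjusted p = 0.001653) at a log2 value of -1.26 (SE 0.25), or -0.89 without control replicate 1. Sema3b (chromosome 9, 107597674-107609229, minus strand), known as a tumour suppressor in other tissues, went the other way. It stood at 15.3 and 26.6 CPM in the controls, against 51.3 and 68.3 CPM after RTX, and rose by DESeq2 (adjusted p = 0.00235) with a log2 fold change of 1.51 (SE 0.33) and an edgeR adjusted p of 0.1699. Leaving out a control gave 1.18 (replicate 1) and 1.97 (replicate 2). Sema3f lies 72.3 kb from Sema3b and was at 44.7 and 36.2 CPM in the controls, against 21.8 and 30.7 CPM after RTX, lower without overlap but past neither test.

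Sema3e, the ligand of Plxnd1, was at 20.1 and 21.3 CPM in the controls, against 11.6 and 8.73 CPM after RTX. Its groups did not overlap, and its log2 difference of -1.02 (SE 0.30) had an unadjusted edgeR p of 0.01358 and an adjusted p of 0.2541. Sema3a, which collapses growth cones through Nrp1, was at 47.0 and 89.8 CPM in the controls, against 34.9 and 54.9 CPM after RTX, an overlap set by the spread of the controls. Its log2 difference of -0.61 ranged from -0.99 to -0.062 with 1 library left out. Sema3c, the most abundant semaphorin, was at 140 and 104 CPM in the controls, against 95.6 and 153 CPM after RTX, with no difference beyond its spread (log2 0.03, SE 0.28). Summed CPM of class 3 was 415 and 372 in the controls, against 265 and 368 after RTX, so that stressed replicate 2 lay just under control replicate 2.

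All 5 tested class 4 semaphorins, membrane proteins that bind B-class plexins, lay below both controls in both stressed libraries. Of all genes tested 22.9% did so, and DESeq2 called 1 of the 5. Sema4a (chromosome 3, 88435959-88461182, minus strand), also known from immune cells, stood at 51.3 and 48.4 CPM in the controls, against 19.81 and 20.004 CPM after RTX. The gene fell by DESeq2 (adjusted p = 0.0004641), with a log2 fold change of -1.32 (SE 0.22) that lay between -1.36 and -1.27 with any 1 library left out. Sema4b was at 39.4 and 71.4 CPM in the controls, against 33.5 and 31.6 CPM after RTX, with an edgeR adjusted p of 0.3843. Its log2 difference of -0.77 ranged from -1.12 to -0.27 with 1 library left out. Sema4c was at 40.4 and 52.4 CPM in the controls, against 24.0 and 39.7 CPM after RTX, close to touching. Sema4d and Sema4g were lower by 0.72 and 1.31 log2 units in the fit, the latter from 96 counts in all, and passed neither test. Summed CPM of the class was 146 and 187 in the controls, against 85.4 and 102 after RTX.

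The class 5 and class 6 semaphorins, membrane proteins with roles in nervous system wiring, did not follow class 4. Sema5a was at 91.5 and 147 CPM in the controls, against 109 and 105 CPM after RTX, inside the control range. Sema6a was at 52.3 and 78.0 CPM in the controls, against 80.4 and 103 CPM after RTX, higher by 0.50 log2 units (SE 0.25) without passing either test. Sema6d was at 41.1 and 45.5 CPM in the controls, against 58.2 and 49.3 CPM after RTX, likewise higher without overlap and uncalled. Sema6c was at 4.82 and 17.0 CPM in the controls, against 10.8 and 9.55 CPM after RTX, so that the controls alone spanned its range.

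Plexins, the semaphorin receptors, were the one large family with more members higher than lower, 5 against 3 of 8 tested, at a median log2 fold change of 0.33, moving to 0.20 with control replicate 1 left out and to 0.21 with stressed replicate 2 left out. With all libraries and the low-count filter, none was called by DESeq2 or edgeR. With no low-count filter edgeR called Plxnd1 (adjusted p of 0.01198) and Plxna4 (adjusted p of 0.02541). Plxnc1 (chromosome 10, 94790866-94944578, minus strand) stood at 238 and 361 CPM in the controls, against 419 and 482 CPM after RTX. Both stressed values were higher, with a log2 difference of 0.59 (SE 0.25) and an edgeR adjusted p of 0.4069. With 1 library left out the difference ranged from 0.33 to 0.92. Plxna1, a co-receptor with neuropilins, was at 121 and 136 CPM in the controls, against 172 and 170 CPM after RTX, a log2 difference of 0.41 (SE 0.17) and an unadjusted edgeR p of 0.05444. Exons of Plxna1 share 10.71% of their length with an antisense gene.

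The largest plexin differences were in genes of low level with uneven controls. Plxnd1 was at 6.21 and 23.5 CPM in the controls, against 32.9 and 51.5 CPM after RTX. Its log2 difference of 1.499 (SE 0.59, edgeR adjusted p of 0.3708) moved to 0.86 with control replicate 1 left out and to 2.77 with control replicate 2 left out. Plxna4, a receptor of class 6 semaphorins, was at 9.43 and 3.90 CPM in the controls, against 14.9 and 23.5 CPM after RTX, with a log2 difference of 1.53 (SE 0.50, edgeR adjusted p of 0.2915). That value moved to 2.31 with control replicate 1 left out and to 1.03 with control replicate 2 left out. Plxnd1 thus lay higher while its ligand Sema3e lay lower, each at an unadjusted p below 0.05 and neither called with all libraries and the low-count filter.

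The other plexins differed less. Plxnb2 was at 187 and 246 CPM in the controls, against 213 and 300 CPM after RTX, overlapping. Plxnb1, the receptor of Sema4d, was at 53.9 and 59.5 CPM in the controls, against 45.9 and 41.6 CPM after RTX, lower by 0.37 log2 units in the fit and uncalled. Plxna2 was at 44.4 and 45.8 CPM and at 25.1 and 38.8 CPM, and Plxna3 at 17.6 and 23.6 CPM and at 12.0 and 15.4 CPM, both lower without overlap and past neither test. The A-class plexins were therefore split, with 2 higher and 2 lower in both stressed libraries. Of the neuropilins, Nrp1 was at 44.0 and 44.7 CPM in the controls, against 53.5 and 56.8 CPM after RTX (log2 0.31, SE 0.19, uncalled). Nrp2 was at 8.03 and 16.0 CPM in the controls, against 17.0 and 9.18 CPM after RTX, and its sign turned when either replicate 1 was left out.

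Among Slits and Robos, Slit3 was the 1 call. Slit3 (chromosome 11, 35121224-35708507, plus strand) stood at 24.0 and 22.8 CPM in the controls, against 6.20 and 8.46 CPM after RTX, from 224 and 269 counts against 66 and 93. It fell by DESeq2 (adjusted p = 0.002757), with a log2 fold change of -1.67 (SE 0.31), the lowest of all guidance genes tested, and an edgeR adjusted p of 0.1373. Slit2, at 3.0 and 10.8 CPM in the controls, against 8.07 and 10.6 CPM after RTX, overlapped. Robo1 was at 26.8 and 14.1 CPM in the controls, against 13.4 and 27.7 CPM after RTX, so that the controls lay inside the range of the stressed libraries. Robo2 was at 8.03 and 15.3 CPM in the controls, against 5.35 and 3.18 CPM after RTX, a log2 difference of -1.45 (SE 0.51, edgeR adjusted p of 0.3155) that was not called.

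**Figure D3:**
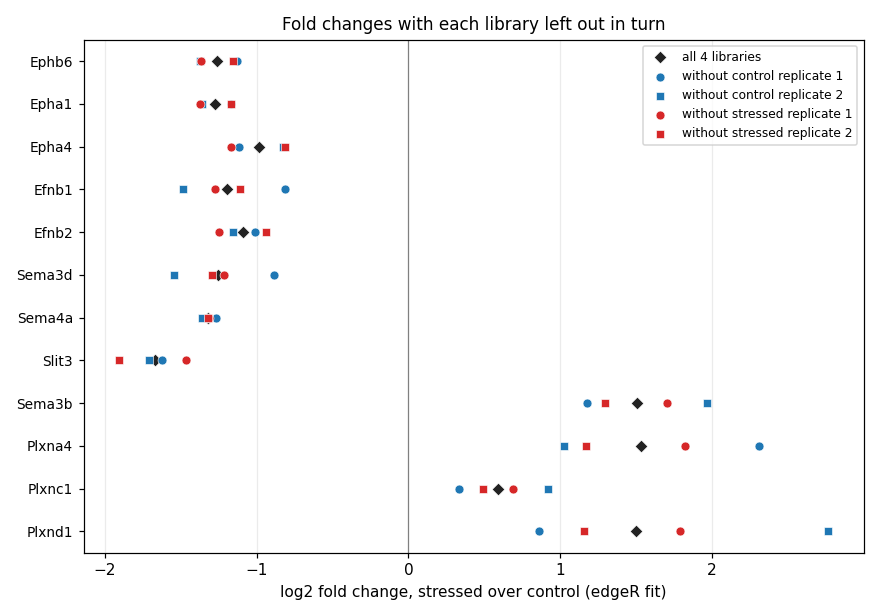
Fitted log2 fold change of the 9 guidance genes called by DESeq2 and of Plxna4, Plxnc1 and Plxnd1, with all libraries (black diamonds) and with each library left out in turn (blue, a control; red, a stressed library). No gene crosses 0, which follows from the choice of genes, since the groups of none of them overlap with all libraries. Sema4a moves least, from -1.36 to -1.27, and Plxnd1 most, from 0.86 to 2.77.

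Keratinocyte marker RNA moved in the same direction as the guidance genes that fell. Its summed level in stressed cells was 0.461 of the control mean, against 0.416 for Ephb6, 0.413 for Epha1, 0.437 for Efnb1, 0.469 for Efnb2, 0.418 for Sema3d, 0.399 for Sema4a, 0.313 for Slit3 and 0.505 for Epha4. The part of keratinocyte RNA in these differences was not tested. The control libraries differed in keratinocyte marker RNA by a ratio of 1.61 (replicate 1 over 2). Efnb1 and Sema3d had ratios of 1.58 and 1.57, Ephb6 1.18, Epha1 1.14, Efnb2 1.10, Sema4a 1.06, Slit3 1.05 and Epha4 0.811. Single keratinocyte markers spread more widely, from 1540 and 2212 CPM in control replicates 1 and 2 for Krt17 to 4038 and 1350 CPM for Krt10. A ratio near to or far from that of the sum therefore does not sort the guidance genes. Melanocyte markers summed to 1.71 of the control mean in stressed cells, with 9 of 10 higher by the fitted value and 6 of them higher in both stressed libraries. The sum rested mostly on the pigment genes Dct, Pmel and Tyrp1, at log2 fold changes of 0.51, 1.25 and 1.36. Kit, Tyr and Mlana were also higher in both stressed libraries, at 0.69, 0.73 and 0.74. Mitf, Sox10, Pax3 and Ednrb overlapped between groups, at 0.21, 0.08, 0.33 and -0.004. How far the sum reflects melanocyte content was not tested. Plxnc1 stood at 1.504 and Plxna1 at 1.33 of their control means. In bulk RNA, fewer cells of a type and less RNA per cell cannot be told apart.

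**Figure D4:**
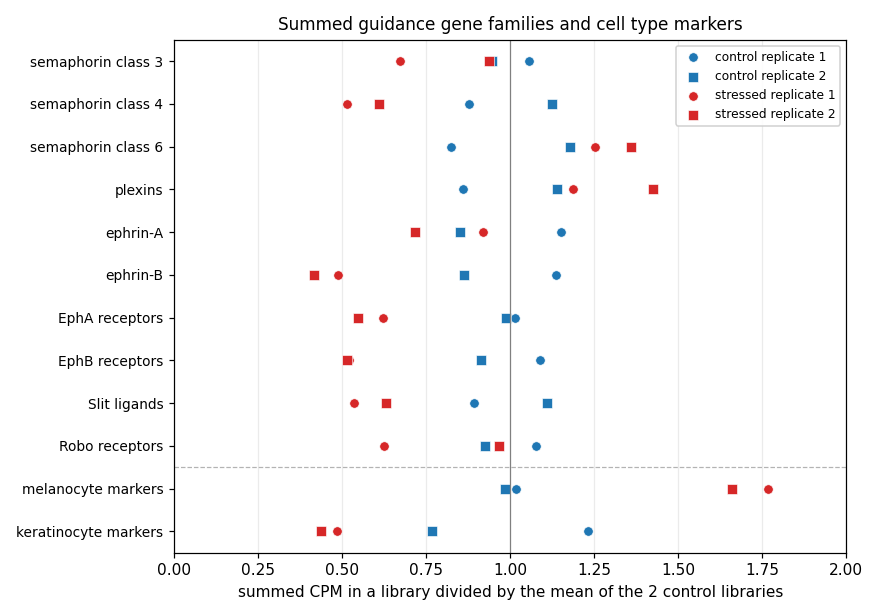
CPM summed over each guidance family or class in each library, divided by the mean of the 2 controls (vertical line at 1), with sums of 10 melanocyte and 12 keratinocyte marker genes below the dashed line. Ephrin-B, EphA, EphB, class 4 semaphorins and Slits lie left of both controls in both stressed libraries. Class 3 semaphorins do so narrowly, at 0.936 in stressed replicate 2 against 0.946 in control replicate 2. The keratinocyte markers also do so and differ more between the controls.

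The partners of these families, 88 genes for netrin and repulsive guidance ligands, their receptors, co-receptors and cytoplasmic effectors, moved both ways. Of 77 tested 41 were higher and 36 lower, with a median log2 fold change of 0.07. DESeq2 called 5 higher and 5 lower, against 1.73% and 2.67% of all tested genes, and edgeR called 0, as it called 0% of all genes. At an unadjusted edgeR p below 0.05 there were 9 higher and 11 lower, against 5.17% and 7.6% of all tested genes. Those that rose by DESeq2 included Nrcam, a cell adhesion partner of neuropilins, at 181 and 234 CPM in the controls, against 424 and 587 CPM after RTX. Met, the hepatocyte growth factor receptor that pairs with B-class plexins, rose from 262 and 320 to 486 and 473 CPM. Adam10, the protease that cleaves ephrins, rose from 216 and 184 to 323 and 322 CPM, and Sdcbp, whose protein syntenin binds ephrin-B tails, from 869 and 753 to 1349 and 1338 CPM. Grb10, an adaptor that binds Eph receptors, rose from 63.7 and 53.4 to 99.4 and 115 CPM. The 2 ephrin-B genes fell while Sdcbp rose, all by DESeq2.

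Those that fell by DESeq2 were Lrig1, Mical2, Sdc1, Tiam1 and Chl1. Lrig1, a membrane protein known from epidermal stem cells, fell from 181 and 261 to 77.6 and 67.6 CPM, and Sdc1, a heparan sulfate proteoglycan of keratinocytes, from 698 and 523 to 266 and 260 CPM. Mical2, of the family of actin oxidases that act below plexins, fell from 61.0 and 57.4 to 18.6 and 23.4 CPM. Tiam1, a Rac activator, fell from 61.5 and 50.3 to 26.9 and 29.8 CPM, and Chl1, an adhesion molecule, from 169 and 98.3 to 70.1 and 59.2 CPM. The 5 with the smallest edgeR p were Lrig1, Mical2, Sdc1, Nrcam and Grb10, with adjusted p from 0.1214 to 0.1707. Keratinocyte markers were lower in stressed cells, as Sdc1 and Lrig1 were, and their part was not tested here either. Between the controls, Sdc1 and the keratinocyte sum were higher in replicate 1, and Lrig1 was higher in replicate 2.

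Guidance genes that lie close together in the genome did not always share a direction. On chromosome 9 Sema3b and Sema3f differed in sign, 1.51 against -0.62. On chromosome 3, Efna1, Efna3 and Efna4 lie within 32.8 kb and 10.4 kb of each other and had log2 values of -0.20, -0.83 and -0.33. On chromosome 5, Sema3d, Sema3a and Sema3e follow each other at 536.5 kb and 422.7 kb, at -1.26, -0.61 and -1.02. On chromosome 16, Robo1 and Robo2 lie 846.2 kb apart, at 0.01 and -1.45.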

How the data were processed

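The 4 deposited tables hold raw read counts, whole numbers for each gene. Per the file headers, the authors counted with featureCounts 1.6.1: reads over exons were added up by gene name (mm10), mapping quality had to reach 30, and neither strand nor read pairing was used. STAR 2.5.3, Trim Galore 0.4.1 and DESeq2 1.22.2 are named in the submitters' processing notes. Libraries were made with Smart-Seq V4, per the labels. In the file headers, the alignments of stressed replicates 1 and 2 carry the numbers 2 and 3.

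The analysis here ran in R 4.3.3. Low genes were removed with filterByExpr (minimum count 10) and libraries scaled by TMM. Groups were compared by the two-sided quasi-likelihood test of edgeR 4.0.16, fitted on all 13348 remaining genes with Benjamini-Hochberg adjustment and a threshold of 0.05. DESeq2 1.42.0 and limma-voom (limma 3.58.1) were alternatives. The SE of a log2 fold change was taken from its F statistic. The fits were tested on simulated data. The guidance genes and the lists of partners and markers were chosen with earlier results of these data known. Values in every library are given for guidance genes with a mean of at least 10 CPM, for those with an unadjusted edgeR p below 0.05 and groups that do not overlap, and for the leading gene of each family; of the partners, DESeq2 calls and the 5 smallest edgeR p are named. All 60 symbols matched a GENCODE M21 gene at overlapping coordinates.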

Additional observations from a re-analysis of the deposited data

How the results depend on the processing

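The count of guidance genes called was 0 by edgeR with TMM, DESeq2 size factors, upper-quartile scaling, limma-voom, the filter of at least 5 CPM in 2 libraries and thinning to the smallest library. It was 11 with no low-count filter, 9 by DESeq2, and 0 to 12 with 1 library left out. For the partners it was 9, 10 and 0 to 12, and over all genes 760 of 18926, 587 of 13348 and 0 to 739. The DESeq2 count of guidance genes was 0 to 9 with 1 library left out, an alternative chosen after seeing the data. With the replicate block, 0 guidance genes and 0 partners were called, with 20 guidance genes at an unadjusted p below 0.05 against 15 without it; same-numbered libraries deviated together by r = 0.1732 across genes, which does not establish pairing with 2 pairs.

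With no low-count filter, which admits genes of few counts, the medians were -0.13 for semaphorins, 0.019 for Robos and 0.43 for Slits. With 1 library left out, medians ranged from -0.75 to -0.16 for semaphorins, -0.61 to -0.16 for Eph receptors, -0.56 to -0.39 for ephrins, 0.20 to 0.48 for plexins, -0.013 to 0.52 for neuropilins, -0.71 to 0.56 for Robos and -0.42 to 1.64 for Slits. Of 46 fold changes, 34 never changed sign and 12 did. Leaving out 1 library can hardly turn the sign of a gene whose groups do not overlap. Groups overlapped for 15 of the 46 genes, and the 12 that changed sign were all among these. The count of 34 therefore largely restates which groups overlap. Robo1 was at -0.002 with upper-quartile scaling and -0.0026 with the replicate block, Sema6c at 0.13 with the replicate block and 0.077 by limma-voom, and Epha3 at 0.0002 by limma-voom. With 1 library left out, values ranged from -0.33 to 0.16 for Ephb4, -0.39 to 0.71 for Nrp2, -0.19 to 1.64 for Slit2, -0.22 to 0.54 for Efna5, -0.39 to 2.01 for Ephb1, -0.60 to 0.56 for Robo1, -0.34 to 0.33 for Sema3c, -0.45 to 0.23 for Sema5a, -0.73 to 1.08 for Sema6c, -1.42 to 0.60 for Epha3, -0.30 to 0.0055 for Epha7 and -0.0087 to 0.48 for Plxnb2.

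Genes of few counts, such as Epha3 with 24 in all, are limited by depth. Fits that leave out 1 library take the spread of the group with 1 library from the other group.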
